A study of Mus musculus with 20 samples.

Results

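The 8 genes described here, Ptgs1, Ptgs2, Ptges, Hpgds, Alox5, Alox5ap, Lta4h and Ltc4s, take part in turning arachidonic acid into prostaglandins and leukotrienes. Alox5ap encodes an activating protein and the others encode enzymes. The 8 genes were chosen by name. Each had a row among the 15855 genes of the scRNA-seq table of cultured macrophages. Each also had one among the 15333 genes of the table of tumor cells. The cultures comprised 2 libraries of B-MF (B-cell derived macrophages, made from bone marrow (BM) B cells) and 2 libraries of Mo-MF (monocyte-derived macrophages), both kept for a week in conditioned medium of 4T1.2 mouse breast cancer cells, with no genetic change named for either. The tumor cells were labelled as macrophages isolated from tumors (TAM), taken from mice with 4T1.2 cancer. Their barcodes carried 4 prefixes, treated here as 4 libraries numbered 2 to 5; these numbers could not be matched to the titles of the 4 TAM samples, so tumor values are given per library and by their range, without SD or test. A further 12 ATAC-seq libraries, 3 each of BM CSF1R+, BM CSF1R-, Spleen CSF1R+ and Spleen CSF1R- cells, gave open chromatin of untreated mice. The study used young adult female mice. The labels call those cells macrophages, and the study's methods describe them as B-cell precursors sorted for or against the M-CSF receptor. The labels do not say whether replicate cultures came from separate animals, so p-values measure the spread between these libraries.

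Arachidonic acid is freed from membranes by phospholipases and then takes 1 of several routes. In the prostaglandin route, the cyclooxygenases COX-1 (Ptgs1), present in many resting cells, and COX-2 (Ptgs2), induced by inflammatory signals, make the intermediate PGH2, which terminal synthases such as Ptges (PGE2) and Hpgds (PGD2) convert further. In the leukotriene route, 5-lipoxygenase (Alox5) works together with its activating protein FLAP (Alox5ap) to make LTA4, from which Lta4h makes the neutrophil attractant LTB4 and Ltc4s makes the cysteinyl leukotriene LTC4. Macrophages, neutrophils and mast cells are known producers of these lipids, and PGE2 is known to restrain T cells in tumors. Levels below are mean corrected counts per cell: the deposited natural log values were turned back into the counts that SCTransform had adjusted to a common depth. A count was taken as detection in a cell.

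The labels were checked against markers. All 8 macrophage markers were found in both cultures but not at like levels, with 6 of them higher in B-MF and Apoe and Mertk higher in Mo-MF. They summed to 272 to 283 in B-MF, with Mo-MF at 585 to 595, a gap that Apoe carried. Apoe was at 139 to 146 in B-MF against 499 to 507 in Mo-MF, C1qc at 31.0 to 32.3 against 16.2 to 16.3, and Cd68 at 36.0 to 36.4 against 33.2 to 33.5. The 9 neutrophil markers summed to 0.724 to 1.06 in B-MF, with 3 of them at 0, and to 126 to 160 in Mo-MF with none at 0. Clusters with neutrophil-like marker genes held 10.3% and 9.48% of the cells of the Mo-MF libraries, and at most 0.0573% of those of a B-MF library. In the TAM libraries neutrophil-like clusters held 35.3% to 62.3% of cells, macrophage-like clusters 17.9% to 37.5% and monocyte-like clusters 15.8% to 24.5%, so the macrophage-like clusters were a minority of the TAM cells. TAM library 2 stood apart, with the lowest share of neutrophil-like and the highest share of macrophage-like cells. The libraries held 2318 to 5389 cells each, with median corrected totals of 18350 to 19469 in cultures and 7651 to 8266 in TAM. Pairs of libraries shared 0 to 14 cell barcodes.

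At the starts of both cyclooxygenase genes, peaks were found in BM cells of either CSF1R sort and almost never in spleen cells. Ptgs1 (chr2:36230426-36252272, plus strand, GRCm38) had a peak within 1000 bases of its start in 3 of 3 BM CSF1R+ and 3 of 3 BM CSF1R- libraries and in 0 of 6 spleen libraries. Ptgs2 (chr1:150100031-150108227, plus strand) had one in all 6 BM libraries and in 1 of 6 spleen libraries. The Ptgs2 peaks reached 11.4 to 18.4 times background in BM CSF1R+ and 9.57 to 14.2 times in BM CSF1R-, against 4.54 times in the only spleen peak, of a CSF1R- library. Of 17491 protein-coding genes, 528 (3.02%) had a peak in all 6 BM libraries and none of the spleen, and 49.2% had a peak in all 12 libraries. Alox5 (chr6:116410077-116461178, minus strand) had a lower peak in 5 of 6 BM libraries, at 4.78 to 7.55 times background, and none in spleen. The lists of peaks were longer in BM, with 65832 to 76530 peaks a library against 43407 to 50392 in spleen.

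The start of Hpgds (chr6:65117293-65144908, minus strand) was open in all 12 libraries and stood higher in spleen. Its peak was at 8.11 to 11.4 times background in the 6 BM libraries and at 15.03 to 18.6 times in the 6 spleen libraries, without overlap. Of the 8599 protein-coding starts with a peak in all 12 libraries, 24.7% likewise had every spleen value above every BM value and 4.84% had the reverse. The ratio of mean spleen to mean BM enrichment was 1.76 for Hpgds, beside a median of 1.09 over these starts. Alox5ap (chr5:149264767-149288153, plus strand) was also open in all 12, at 9.92 to 12.3 times in BM and 11.6 to 18.0 times in spleen. At Lta4h (chr10:93453411-93484875, plus strand) all 12 libraries had a peak at the upstream end of the window, with its summit between bases -1388 and -841 from the start. The peak crossed the edge of the window in every library but Spleen CSF1R- replicate 2. Ptges (chr2:30889471-30929863, minus strand) had no peak at its RefSeq start, base 30903297 inside that span, in any library. Over the gene and 5000 bases on either side it had 6 to 7 peaks in BM CSF1R+ libraries and 4 to 5 in BM CSF1R-. Spleen CSF1R+ libraries had 1 to 2 peaks there and Spleen CSF1R- libraries none. Within 1000 bases of its start Ltc4s (chr11:50236461-50238616, minus strand) had a single weak peak of 2.52 times background, in 1 BM CSF1R- library. Over the gene and 5000 bases on either side it had 2 to 3 peaks in BM libraries and 2 in spleen libraries. Fold enrichment is relative to the local background of each library and was not scaled between libraries, so the differences are given without a test.

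**Figure D1:**
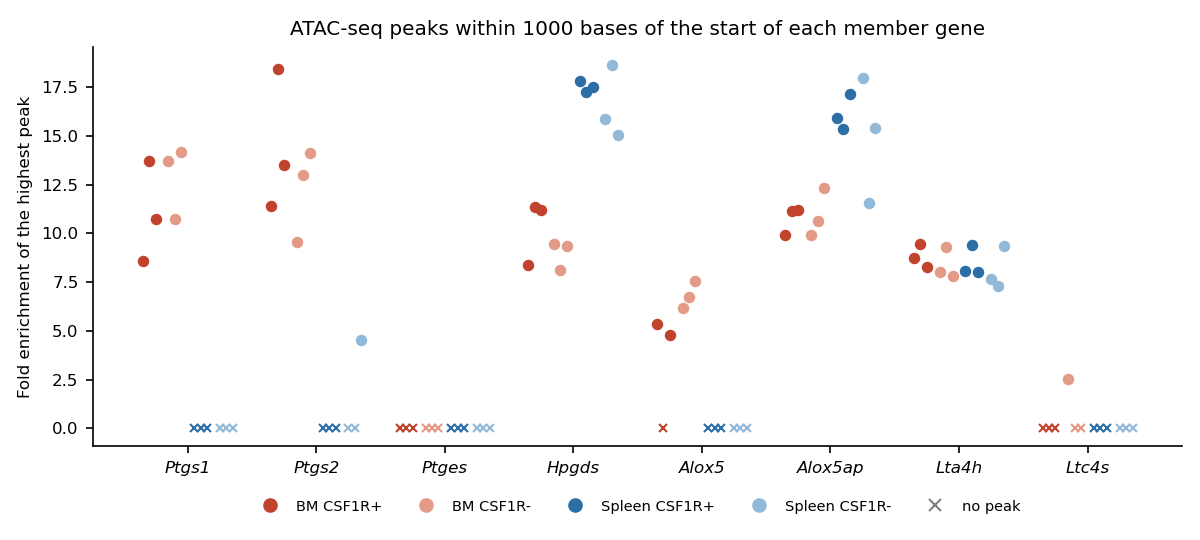
Fold enrichment over local background (y axis) of the highest ATAC-seq peak within 1000 bases of the start of each gene (x axis), with 1 point per library and a cross at 0 for a library with no peak. Ptgs1, Ptgs2 and Alox5 have points almost only for BM libraries, whereas the spleen points of Hpgds, at 15.03 to 18.6, lie above its BM points, at 8.11 to 11.4.

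The 250 bases before the RefSeq start (GRCm38.p6) are shown for Ptgs1 and Ptgs2, with peaks in BM and nearly none in spleen, and for Hpgds, with peaks in both. Capitals mark matches on either strand to the short motifs searched, AGGAAGT (the PU.1 motif), TTGCNNAA (the C/EBP motif), TGACGTNA (the CRE motif), TGANTCA (the AP-1 motif), CACGTG (the E-box), GGGCGG (the GC box), TATAAA (the TATA box) and an NF-kB consensus. The windows are chr2:36230176-36230425 on the plus strand, chr1:150099781-150100030 on the plus strand and chr6:65144731-65144980 on the minus strand.
Ptgs1: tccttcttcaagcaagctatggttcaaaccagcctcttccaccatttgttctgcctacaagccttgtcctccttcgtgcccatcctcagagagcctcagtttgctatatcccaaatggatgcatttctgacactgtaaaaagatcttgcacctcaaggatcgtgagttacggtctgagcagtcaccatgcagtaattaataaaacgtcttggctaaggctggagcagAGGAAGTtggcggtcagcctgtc
Ptgs2: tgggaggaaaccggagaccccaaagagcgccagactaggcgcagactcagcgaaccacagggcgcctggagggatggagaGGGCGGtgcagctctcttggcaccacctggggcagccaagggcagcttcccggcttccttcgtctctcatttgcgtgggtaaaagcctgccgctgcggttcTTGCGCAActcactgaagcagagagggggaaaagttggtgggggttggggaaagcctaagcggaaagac
Hpgds: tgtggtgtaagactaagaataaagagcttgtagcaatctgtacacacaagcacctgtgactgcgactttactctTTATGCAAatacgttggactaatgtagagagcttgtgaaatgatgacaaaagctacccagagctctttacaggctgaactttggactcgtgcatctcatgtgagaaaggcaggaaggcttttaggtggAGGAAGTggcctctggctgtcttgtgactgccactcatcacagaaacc
The Ptgs1 window held AGGAAGT at bases -23 to -17 from the start, and the Hpgds window held it at bases -48 to -42; 7.4% of the 17491 promoters of protein-coding genes hold it. The Ptgs2 window held TTGCNNAA, found in 9.11% of promoters, at bases -69 to -62, and a GC box, found in 42.7%, at bases -170 to -165. The Hpgds window also held TTGCNNAA at bases -176 to -169. No matches overlapped each other. All 6 BM peaks over Ptgs1 covered the AGGAAGT match, with summits of the highest peak between base -1 and base 37. The 12 peaks over Hpgds had summits between base -45 and base 3. A match is a description of the letters only. Of the 8 genes, 7 had a promoter sequence in the table used, all but Alox5ap.

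COX-1 showed the largest difference between the cultures among the 6 members tested. The mean corrected count of Ptgs1 was 1.91 and 1.81 for the B-MF libraries, against 0.856 and 0.8293 for the Mo-MF libraries, without overlap. The log2 difference was 1.05 ± 0.05 (SE, n = 2 against 2; limma, Benjamini-Hochberg adjusted p = 2.59e-06), a ratio of 2.07 on the scale of mean + 0.1. In the same fit 3413 of 8633 genes (39.5%) passed the threshold, 22.6% higher in B-MF and 16.9% higher in Mo-MF. Both B-MF values lay above both Mo-MF values for 40% of genes, and the reverse held for 29.6%. Ptgs1 was detected in 72.8% and 69.1% of B-MF cells and in 47.1% and 46.0% of Mo-MF cells. With at least 2 counts asked for, the shares were 47.6% and 46.2% against 20.3% and 18.8%, and with each cell thinned to 10000 counts, a step that left out no cell, they were 55.0% and 52.9% against 31.5% and 30.6%. In the tumor table, which was normalised separately, Ptgs1 was at 0.0574 to 0.0745 with a median of 0.0607 over 4 TAM libraries, and 4.13% to 5.60% of cells had a count.

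Within the cultures Ptgs1 was not even across clusters. Among those found mostly in B-MF it was at 2.16 in cluster 0, led by Pf4, Egr1 and Nr4a1, at 1.56 in cluster 1, led by Myc, and at 2.77 in the small cluster 10, led by MHC class II genes. The clusters that hold most Mo-MF cells, 2, 3 and 4, were at 0.871, 0.627 and 0.643. The highest level, 3.33, was that of the 121 monocyte-like cells of Mo-MF, and neutrophil-like clusters 7 and 9 were at 1.53 and 1.17. Cluster 7 had a median of only 2813 detected genes, and 74.9% of its cells had at least 1 Ptgs1 count but 25.7% at least 2. The part of the depth correction in that level was not tested. Counting only macrophage-like, monocyte-like and unnamed clusters, the Ptgs1 difference was 1.14 ± 0.05 (limma, adjusted p = 1.84e-06). In the tumor, the mean of Ptgs1 was highest in cluster 5, led by C1qa, C1qb and C1qc, at 0.224 (0.151 to 0.252 over libraries) with 16.2% of cells. It could not be ordered against neutrophil-like cluster 9, at 0.125 (0.0698 to 0.267 over 3 libraries). B-like cells showed Ptgs1 in 0 of 243 cells, which allows up to 1.235% of cells with a count and sets no limit on cells that express it.

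COX-2 did not pass the test over all cells, and its values hid a difference in which cells carried the counts. Ptgs2 was at 0.217 and 0.193 in B-MF and at 0.241 and 0.213 in Mo-MF, ranges that overlap, with a log2 difference of -0.10 ± 0.06 (SE; limma, adjusted p = 0.261). More B-MF cells had a count, 11.2% and 9.46% against 7.24% and 6.77% of Mo-MF cells, but positive Mo-MF cells held more, 3.33 and 3.14 counts on average against 1.95 and 2.04. With cells thinned to 10000 counts, the mean shares of the groups were 6.95% and 5.27%. Neutrophil-like clusters, with 10.3% and 9.48% of the Mo-MF cells, gave 79.4% and 66.8% of the Ptgs2 counts of those libraries, and monocyte-like cells, with 1.20% and 1.17% of the cells, gave 9.07% and 13.3%. In B-MF, 93.9% and 94.1% of the counts came from macrophage-like clusters.

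Macrophage-like cells alone held 0.221 and 0.195 Ptgs2 counts in B-MF, from clusters 0 and 1 above all, but 0.0333 and 0.0518 in Mo-MF, mostly from clusters 2 and 4. Detection in these cells was 11.3% and 9.65% against 2.53% and 2.93%. Counting the macrophage-like, monocyte-like and unnamed clusters, the difference was 0.86 ± 0.08 with B-MF higher (limma, adjusted p = 6.01e-05). Over all cells the difference was not called in the main fit, but was called with Mo-MF higher when libraries were centred on their median. Its sign also changed with the scale, at 0.023 for the mean of natural log values. Leaving out the 3 culture clusters with a median under 3000 detected genes, 1 of them neutrophil-like, it was 0.41 ± 0.06 (adjusted p = 0.000874). The direction for Ptgs2 thus depended on the cells counted, and the summed level of the 9 neutrophil markers differed between the same cultures. In clusters 5, 7 and 8, with few detected genes per cell, the corrected counts hold few values of exactly 1 for scarce genes: in cluster 5, 5.43% of cells had at least 1 and the same 5.43% had at least 2 Ptgs2 counts.

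**Figure D2:**
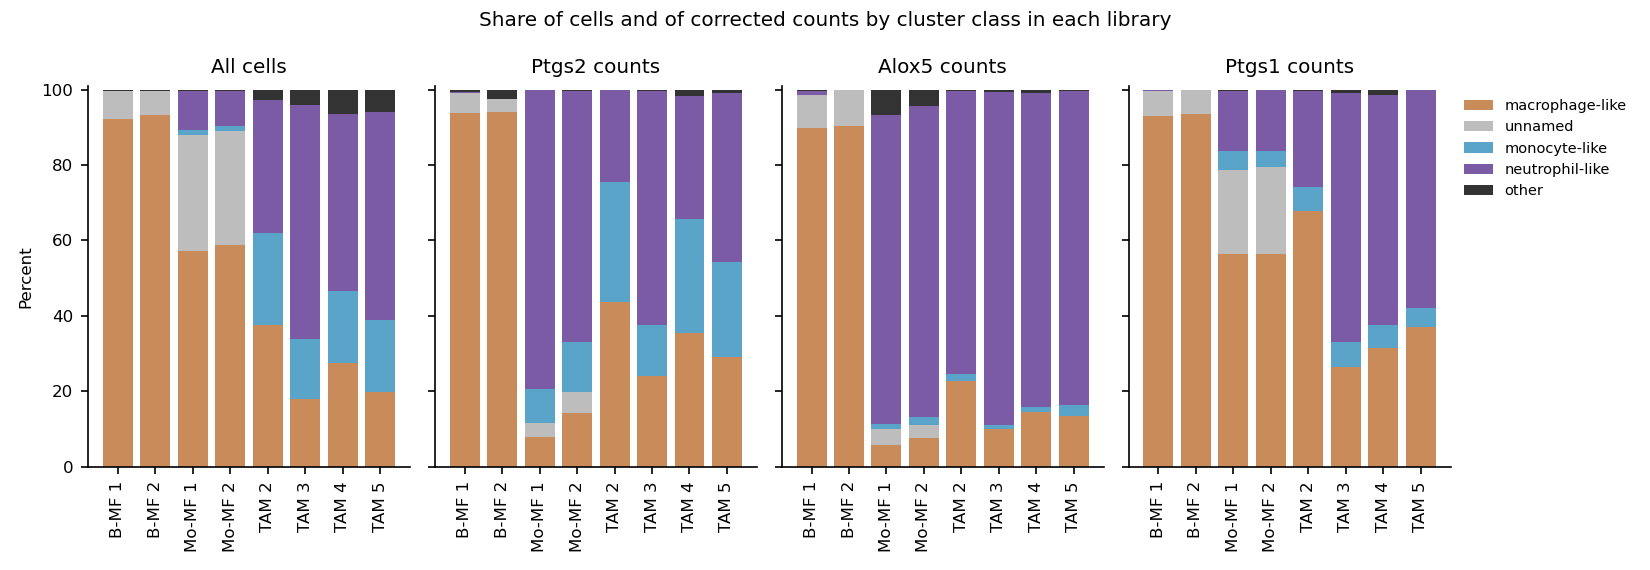
Share (y axis, percent) of all cells and of the corrected counts of Ptgs2, Alox5 and Ptgs1 held by each class of cluster in each library (x axis). Neutrophil-like cells are about 10% of Mo-MF cells and hold 79.4% and 66.8% of Mo-MF Ptgs2 counts, but only 15.9% and 16.02% of Ptgs1 counts.

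The terminal prostaglandin synthases differed from each other in level and spread. Hpgds was at 3.92 and 3.96 in B-MF and at 3.22 and 3.24 in Mo-MF, without overlap (log2 difference 0.28 ± 0.05, SE; limma, adjusted p = 0.0027). It was detected in 94.8% and 96.0% of B-MF cells and in 92.3% and 93.3% of Mo-MF cells, and with at least 2 counts in 83.6% and 84.2% against 74.5% and 75.8%. Within the cultures it was lower in the granule-rich neutrophil-like cluster 13 (0.688) and in fibroblast-like cluster 14 (0.423, 7 of 26 cells, 95% Wilson interval 13.7% to 46.1%). Cluster 4, a Ly6a-led macrophage-like cluster of Mo-MF, was at 4.40, above the B-MF clusters 0 and 1 at 3.92 and 3.84, so the order of the cultures did not hold for every Mo-MF cluster. Ptges was scarce, at 0.0178 and 0.0152 in B-MF, with Mo-MF at 0.0213 and 0.0221, under the limit of 0.1 for a test. Its highest level was 1.96 in the 26 fibroblast-like cells of the cultures. Such cells were 0.286% and 0.188% of the B-MF libraries and held 24.7% of their Ptges counts in each. In clusters 0 to 4 Ptges was detected in 0.575% to 3.398% of cells.

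In the leukotriene route, 5-lipoxygenase itself was rare in the cultured macrophages while FLAP was abundant. Alox5 was at 0.0525 and 0.0513 in B-MF and at 0.0885 and 0.0700 in Mo-MF, under the limit for a test. Neutrophil-like clusters held 81.8% and 82.5% of the Mo-MF counts, and a small cluster with mast/basophil and B-cell markers held another 6.76% and 4.24%. Among macrophage-like cells alone the order was the other way round: 0.0512 and 0.0497 in B-MF, with 4.35% and 4.13% of cells, and 0.00904 and 0.00915 in Mo-MF, with 0.868% and 0.789% of cells. These values are low and were not tested. With at least 2 counts asked for, 0.601% and 0.644% of B-MF and 0.0362% and 0.126% of Mo-MF macrophage-like cells remained.

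Alox5ap was at 7.26 and 7.15 in B-MF and at 6.45 and 6.07 in Mo-MF (log2 difference 0.20 ± 0.05, SE; limma, adjusted p = 0.0191), and 99.2% and 99.1% against 95.3% and 95.4% of cells had a count. The difference was 0.24 without Mo-MF replicate 1 and 0.16 without Mo-MF replicate 2. With only 1 Mo-MF library left, the fit gave different genes the same SE. Such a fit cannot decide whether the call holds, and its p-values are not given. Neutrophil-like cluster 7 stood at 23.6 and monocyte-like cluster 11 at 19.3, whereas the Mo-MF macrophage-like clusters differed among themselves, with cluster 2 at 3.53 and cluster 4 at 7.37. Neutrophil-like cells gave 29.5% and 25.6% of Mo-MF counts. Counting macrophage-like, monocyte-like and unnamed clusters, the libraries were at 7.28 and 7.17 against 5.02 and 4.95, a difference of 0.53 ± 0.05 (limma, adjusted p = 8.92e-05).

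The enzymes after LTA4 went in opposite directions. Lta4h, which makes LTB4, was the only member that passed the test with Mo-MF higher, at 0.451 and 0.426 in B-MF, with Mo-MF at 0.570 and 0.524 (log2 difference -0.26 ± 0.06, SE; limma, adjusted p = 0.00774). Without Mo-MF replicate 1 the difference was -0.21, and here too such a fit cannot decide whether the call holds. The 32 neutrophil-like cells of cluster 13, led by Elane, Ngp and Camp, were far above all others at 6.75, with 93.8% of cells (95% Wilson interval 79.9% to 98.3%), and macrophage-like and unnamed clusters 2 and 3 of Mo-MF, at 0.576 and 0.601, lay close to B-MF cluster 1 at 0.524. Macrophage-like cluster 4 of Mo-MF, at 0.405, lay below B-MF cluster 1 and near cluster 0 at 0.383, so here too the order of the cultures did not hold for every cluster. Ltc4s, which makes LTC4, was higher in B-MF, at 0.278 and 0.261 against 0.179 and 0.188 (log2 difference 0.38 ± 0.05; limma, adjusted p = 0.000753), with detection in 18.3% and 17.3% against 14.1% and 14.8% of cells. As with Hpgds, cluster 4 of Mo-MF, at 0.309, lay above B-MF clusters 0 and 1, at 0.265 and 0.289. The order of the cultures thus did not hold for every Mo-MF cluster. Of the 6 members tested, 4 were called higher in B-MF and 1 higher in Mo-MF, beside 22.6% and 16.9% of all genes tested, and their median log2 difference was 0.24 beside 0.02 over all 8633 genes.

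**Figure D3:**
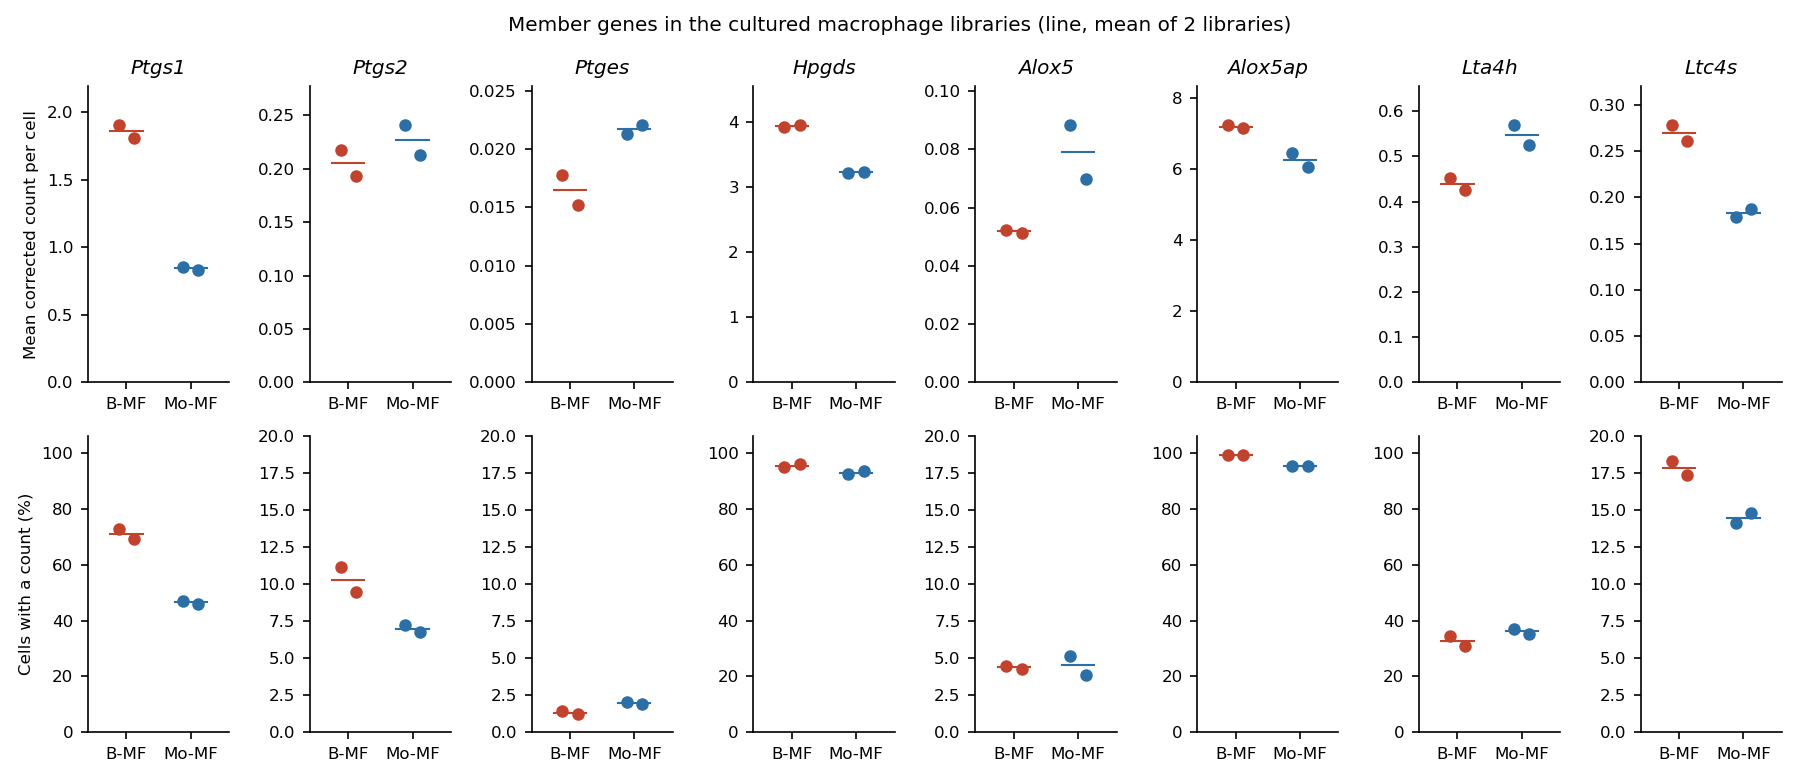
Mean corrected count per cell (top) and percent of cells with a count (bottom) of the 8 genes in the 2 B-MF and 2 Mo-MF libraries, with a point per library and a line at the mean of 2. The B-MF points lie above the Mo-MF points for Ptgs1, Hpgds, Alox5ap and Ltc4s and below them for Lta4h, while the levels of Ptgs2 overlap.

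**Figure D4:**
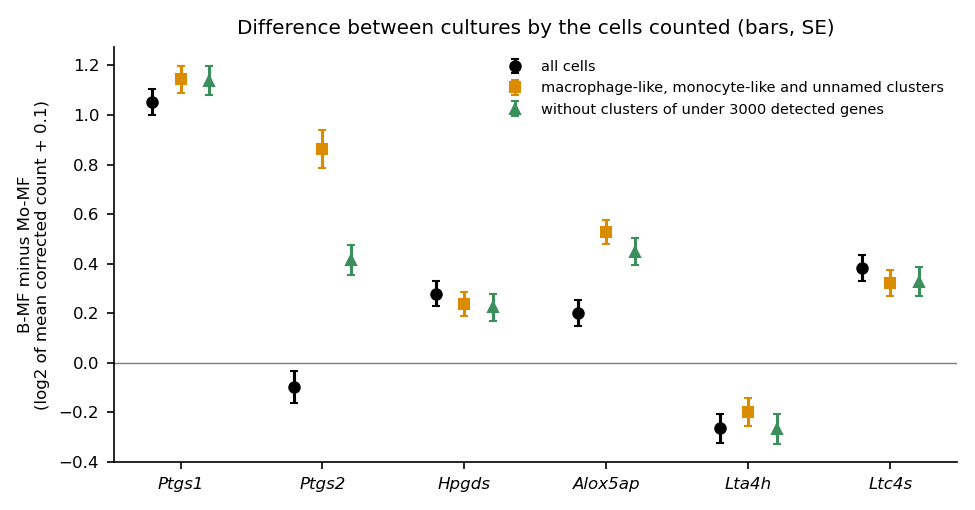
Difference between B-MF and Mo-MF (y axis, log2 of the mean corrected count + 0.1; bars, SE) for the 6 members tested, over all cells, over macrophage-like, monocyte-like and unnamed clusters, and without clusters of under 3000 detected genes. Ptgs2 moves from -0.10 to 0.86 and 0.41, and the other 5 keep their direction.

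In tumor cells Ptgs2 was the most widely detected of the 8 genes after Alox5ap, in 47.3% to 51.3% of cells of the 4 TAM libraries. Its level was 2.89, 3.13, 3.34 and 3.44 in libraries 5, 2, 3 and 4. Counts were spread over myeloid classes: neutrophil-like cells gave 24.2% to 62.0% of them, macrophage-like cells 24.1% to 43.6% and monocyte-like cells 13.5% to 32.0%. Monocyte-like and macrophage-like cells together stood above neutrophil-like cells in 4 of 4 libraries, at 3.72 to 4.84 against 2.15 to 3.32, with log2 differences of 0.16 to 0.99. Of the 5905 genes of the tumor table with a mean of at least 0.1, 70.5% stood in this order within each of the 4 libraries and 19.7% in the reverse order. Monocyte-like cells alone did not follow it in library 3, at 2.85 against 3.32 in neutrophil-like cells.

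Across tumor clusters Ptgs2 was highest in macrophage-like cluster 3, led by Arg1 and Mmp12, at 6.72 (5.44 to 7.30 over libraries) with 75.7% of cells. Monocyte-like cluster 2, led by Thbs1, followed at 5.52 (4.58 to 7.61), and these ranges overlap. Neutrophil-like cluster 1, led by Il23a and interferon genes (3.602, 2.66 to 6.07), macrophage-like cluster 6, led by MHC class II genes (3.36, 2.92 to 3.802), and neutrophil-like cluster 0 (2.58, 2.17 to 3.01) could not be ordered beyond the spread of libraries. The C1q-led macrophage-like cluster 5 was at 1.04 with 26.5% of cells, though 1 library reached 3.51, and granule-rich neutrophil-like cluster 9 was at 0.292 with 11.8%. B-like cells, taken as a background, had a count in 3.70% of cells at a median total of 7525, and T/NK-like cells in 10.1% at 8364, against 75.7% at 8470 in cluster 3. Ptgs2 was in 0 of 65 osteoclast-like cells, which allows up to 4.62% of cells with a count.

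The other prostaglandin enzymes had narrower patterns in the tumor. Hpgds was at 0.133 to 0.201 over libraries (median 0.161) and, like Ptgs1, had its highest mean in the C1q-led cluster 5, at 0.732 (0.614 to 0.787) and 42.6% of cells. The next clusters, B-like (0.247, 14.4% of cells) and neutrophil-like cluster 0 (0.233, 10.0%), lay below the range of cluster 5. Pooled over libraries, 14.4% of B-like cells had a count (95% Wilson interval 10.5% to 19.4%) and 2.53% of T/NK-like cells (0.697% to 8.77%). The 10.8% of cluster 3 lay between these shares. The intervals do not measure the spread between libraries. By library the share was 11.1% to 23.1% in B-like cells, read in 3 libraries, and 3.85% in T/NK-like cells, read in 2. Ptges was at 0.013 to 0.0314 (median 0.0159), with 10 of 19 fibroblast-like cells positive (52.6%, 95% Wilson interval 31.7% to 72.7%), 6.15% of osteoclast-like cells (2.42% to 14.8%), 4.98% of the Arg1-led cluster 3 (3.89% to 6.36%) and 0 of 243 B-like cells. The fibroblast-like cells of TAM library 4 gave 39.5% of its Ptges counts. The 4 osteoclast-like cells with a Ptges count all came from TAM library 2, where they were 15.4% of 26 such cells.

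Alox5 and Lta4h, successive enzymes on the way to LTB4, had their higher mean count in different classes of tumor cells. Alox5 was at 0.101, 0.173, 0.169 and 0.186 in libraries 2, 5, 4 and 3, and neutrophil-like cells gave 75.0% to 88.4% of its counts. Neutrophil-like cells were at 0.214 to 0.301 and monocyte-like and macrophage-like cells at 0.0401 to 0.0719, ranges that do not overlap, with log2 differences of -1.35 to -1.07, or -0.299 to -0.223 with a pseudocount of 1 in place of 0.1. Of the same 5905 genes, 16.6% had all 4 libraries higher in neutrophil-like cells without overlap, and 67% had all 4 lower. Within neutrophil-like cells Alox5 ran from 0.143 in cluster 0 through 0.260 in cluster 1 and 0.437 in cluster 4 to 0.806 in granule-rich cluster 9, where 62.5% of cells had a count, cluster 9 being read in 3 libraries. The clusters were drawn from the same cells, and how many genes separate them likewise was not counted. The mean of Lta4h went the other way, at 0.235 to 0.283 in monocyte-like and macrophage-like cells and 0.115 to 0.145 in neutrophil-like cells (log2 differences of 0.58 to 0.71 in 4 of 4 libraries, and 0.146 to 0.166 with a pseudocount of 1). With at least 2 counts asked for, this order did not hold: 2.72% to 4.55% of neutrophil-like cells remained, against 1.02% to 2.52% of macrophage-like and 2.45% to 4.38% of monocyte-like cells. Neutrophil-like cells still gave 21.2% to 47.1% of the Lta4h counts. In granule-rich cluster 9 Lta4h was at 0.569 (0.326 to 0.933 over 3 libraries) with 35.4% of cells, and it could not be ordered against the 57 cells of monocyte-like cluster 13, at 0.544 with 43.9% of cells. Lta4h was also found in 8.64% of B-like and 17.7% of T/NK-like cells. Neutrophil-like clusters had medians of 1313.5 to 1447 detected genes and the macrophage-like and monocyte-like clusters 2284.5 to 2734.5, and the part of that gap in these differences was not tested.

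FLAP was seen in nearly all tumor myeloid cells. Alox5ap was at 6.34 to 8.55 over libraries (median 7.36) with 91.9% to 95.6% of cells, and neutrophil-like cells stood above monocyte-like and macrophage-like cells in 4 of 4 libraries, at 7.996 to 9.30 against 5.66 to 8.04 (log2 differences of -0.49 to -0.21). That gap lay with the macrophage-like cells, at 4.12 to 6.42, since monocyte-like cells alone were at 8.02 to 9.87. It was at 20.01 in cluster 9, 13.8 in cluster 4 and 10.1 in Ccr2-led monocyte-like cluster 7, and lowest among neutrophil-, monocyte- and macrophage-like clusters in C1q-led cluster 5 at 3.16. B-like cells were at 1.06 with 52.7% of cells, of which only 12.3% had at least 2 counts, and dendritic-like cells at 0.398. Ltc4s was scarce, at 0.121 in library 2 and 0.0251 to 0.0341 in the other 3. It was most frequent in dendritic-like cluster 10, led by Ccl5, Fscn1 and Ccr7 (24.3% of 103 cells), followed by osteoclast-like cluster 12 (10.8% of 65 cells) and macrophage-like clusters 5 (6.34%) and 3 (5.40%), against 2.06% of B-like cells. TAM library 2 carried much of the macrophage signal: its macrophage-like cells were at 0.278 and those of the other libraries at 0.0351 to 0.0812.

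The other genes of the pathway were read from a list of 49, covering release of arachidonic acid, other synthases, breakdown and receptors. Of these 41 had a row in the culture table and 20 passed the filter. Of the 20, 9 were called higher in B-MF and 4 higher in Mo-MF, and 7 were not called, beside 22.6% and 16.9% of all genes tested, and their median log2 difference was 0.07 beside 0.02 over all genes. Of those called, Ltb4r1 and Ptger2 passed the filter only through Mo-MF and Ptger4 only through B-MF, each the culture where it was higher. Among other prostanoid synthases and reductases 4 of 6 were called higher in B-MF and none lower. Tbxas1, thromboxane synthase, was at 3.28 and 3.23 in B-MF, with Mo-MF at 2.01 and 2.07 (log2 difference 0.65 ± 0.05, SE; limma, adjusted p = 2.75e-05). Prxl2b, a prostaglandin F synthase listed under its older symbol Fam213b, was at 2.23 and 2.14 against 1.39 and 1.41 (0.61 ± 0.05, adjusted p = 4.72e-05). Mgst3, a microsomal enzyme that can also make LTC4, differed by 0.56 ± 0.05 (adjusted p = 9.93e-05).

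At the start of the pathway, Pla2g4a, the cytosolic phospholipase A2 that frees arachidonic acid, was higher in B-MF at 0.351 and 0.325 against 0.184 and 0.167 (log2 difference 0.67 ± 0.06, SE; limma, adjusted p = 5.48e-05). Pla2g7, which inactivates platelet-activating factor, was higher in Mo-MF at 8.27 and 7.99 against 3.45 and 3.26 (-1.25 ± 0.05, adjusted p = 9.67e-07), and the lysosomal Pla2g15 was also higher in Mo-MF (-0.23 ± 0.05, adjusted p = 0.00806). Its difference was -0.22 without Mo-MF replicate 1 and -0.24 without Mo-MF replicate 2, fits that cannot decide whether the call holds. Of the 4 receptors tested, 2 were called higher in each culture, and 5 more with a row lay under the filter. Of the 4, Ltb4r1, Ptger2 and Ptger4 passed the filter only through the culture where they were higher. The division is therefore not read as a result about receptors. Cysltr1, a receptor for cysteinyl leukotrienes, was higher in B-MF at 0.788 and 0.743 against 0.474 and 0.456 (0.61 ± 0.05, adjusted p = 5.55e-05). Ltb4r1, the LTB4 receptor BLT1, was higher in Mo-MF, at 0.0802 and 0.0650 in B-MF, with Mo-MF at 0.594 and 0.517 (-1.92 ± 0.07, adjusted p = 4.96e-07). Its B-MF level lay under the limit of 0.1 for a test, so it passed the filter only through Mo-MF. Counting macrophage-like, monocyte-like and unnamed clusters, its difference was -1.16 ± 0.06 (adjusted p = 3.08e-06), and with a pseudocount of 1 over all cells it was -0.54. Ptger2, a PGE2 receptor, was higher in Mo-MF (-0.58 ± 0.06, adjusted p = 0.000223). Its mean was 0.0950 in B-MF, also under the limit, and 0.192 in Mo-MF, so it too passed the filter only through Mo-MF.

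Some of the same genes were read in tumor cells, without a test. Pla2g4a was at 0.513 to 0.631 in monocyte-like and macrophage-like cells and 0.0880 to 0.107 in neutrophil-like cells of the 4 libraries. Cysltr1 was split likewise, at 0.513 to 0.553 against 0.0266 to 0.0471, and Tbxas1 at 0.150 to 0.299 against 0.0166 to 0.0266. Ltb4r1 had overlapping ranges, at 1.40 to 1.76 against 1.38 to 1.75. For Pla2g4a, Cysltr1 and Tbxas1 no library of one class overlapped the other class, a separation in this direction that 67% of the 5905 genes shared.

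Likeness was measured as Pearson's r over profiles of each library by cluster (29 in cultures and 46 in tumor, with libraries shared between profiles), as a description. In cultures Ptgs1 was most like Kctd12 (r = 0.943), Tiparp (0.922) and Ier3 (0.913), and Ptgs2 most like Stk17b (0.946), Il1b (0.945) and Cebpd (0.942). Hpgds was most like Phf20 (0.913), Nrp2 (0.886) and Wwp1 (0.886), and Alox5ap most like Arhgdib (0.977), H3f3a (0.962) and Ncf4 (0.952). For Lta4h the nearest were Tnfrsf26 (0.908), Cds2 (0.883) and Mical1 (0.882), and for Ltc4s Gstm5 (0.95), Copz2 (0.929) and Nme4 (0.915).

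In the tumor Ptgs2 was most like Mkrn1 (0.89), Rbms1 (0.877) and Il1a (0.842). Alox5 was most like Ly6g (0.955), Mrgpra2b (0.945) and Stfa3 (0.943), and Alox5ap like Gda (0.95), Hp (0.933) and Ltb4r1 (0.927), the receptor for LTB4. Hpgds lay nearest to Cd72 (0.792), C1qb (0.76) and Blvrb (0.759), and Lta4h to Chil3 (0.75), Ethe1 (0.723) and Ly6c2 (0.714). For Ptgs2, Hpgds, Alox5ap and Lta4h, which were read in both tables, no gene was among the 3 nearest in both.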

How the data were processed

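The cells were sequenced with a 10x 3' kit. For both scRNA-seq tables the authors ran Cell Ranger (STAR, mm10) and SCTransform in Seurat, and deposited natural log values, ln(1 + corrected count), separately for cultures and tumor. The values were converted back to corrected counts, all of which were whole within 1e-06. SCTransform sets cells to a common depth, so depth per cell before correction is unknown here, and intervals and floors (3 counts) cover counting error only. For ATAC-seq, per the labels and methods, the authors used cutadapt, BWA (mm10) and MACS2 per library and deposited peaks with fold enrichment over local background and -log10 p- and q-values.

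Library means were compared as log2(mean + 0.1), so fold changes of low genes are understated, and genes whose mean over the 4 culture libraries was under 0.1 were not tested. The test was limma 3.58.1 (R 4.3.3), 2 B-MF against 2 Mo-MF libraries, two-sided, with Benjamini-Hochberg adjustment at 0.05, tested first on simulated data. Cells were clustered (30 principal components, Leiden resolution 0.5, without the members and the other eicosanoid genes) and named "-like" from marker lists; no doublet caller was run, and doublets were not removed. A peak counted when at least 1 of its bases lay within 1000 bases of a start. The members and gene lists were chosen with earlier results of these data known. Named eicosanoid genes are those called, the 5 with the largest difference higher in B-MF and those higher in Mo-MF; the nearest genes are the 3 with the highest r. Replicate numbers of 2 pairs could not be taken as pairs (r = 0.126 between deviations of same-numbered libraries). Alternatives were other pseudocounts, filters, scalings, cell sets, resolutions, peak windows and leaving out each library.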

Additional observations from a re-analysis of the deposited data

Results flagged for a closer look

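TAM library 2 lay far from the other 3 tumor libraries for Ltc4s, the LTC4 synthase. Its mean corrected count was 0.120755, against 0.0251 to 0.0341 in the others, and 3.6478% of its cells had a count, against 1.5% to 1.81%. Chance alone marks about 1 in 20 groups in this way, and 16 sets of 4 libraries were looked at. The library also held the largest share of macrophage-like cells (37.5%), and its macrophage-like cells were at 0.278 against 0.0351 to 0.0812, so the gap was present within that class too.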

How the results depend on the processing

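Ptgs1, Hpgds and Ltc4s kept their direction under every alternative that tested them. With all 4 libraries they kept their call in the fits that gave genes their own SE. A pseudocount of 1, the mean of natural log values and the replicate block gave different genes the same SE. Those fits cannot decide whether a call holds. With a mean of at least 0.5 asked for, Ltc4s was under the filter and had no test. A pseudocount of 1 made the differences of scarce genes smaller, with Ptgs1 at 0.63, Ltc4s at 0.102 and Lta4h at -0.105. Ptgs2, not called at -0.10, passed the threshold when libraries were centred on their median (-0.12, called by limma). Its sign turned with the mean of natural log values (0.023). The sign also turned in macrophage-like, monocyte-like and unnamed clusters (0.86) and without clusters of under 3000 detected genes (0.41). The last of these was chosen after seeing the data. Leaving out a library gave -0.16 to -0.037 for Ptgs2 (called without B-MF replicate 1), 0.16 to 0.24 for Alox5ap and -0.32 to -0.21 for Lta4h. It gave 2042 to 5500 genes called (3413 with all), 1103 to 3859 higher in B-MF and 913 to 2934 higher in Mo-MF, where the lone library was assumed to vary like the other group. Genes higher in Mo-MF numbered 951 with a mean of at least 0.5 and 2529 after centring (1458 otherwise), and eicosanoid genes higher in Mo-MF 2 instead of 4 with that filter. With the replicate number as a block no member changed direction, and that fit cannot decide whether a call holds. The tumor difference for Ptgs1, 0.00, was -0.033 at resolution 0.25 and -0.098 to 0.091 when a library was left out. Within 5000 bases Ltc4s had a peak in 12 libraries instead of 1, and with at least 50% of a peak inside the window Lta4h had 2 instead of 12. Shares of cells with a count moved by at least the SD of their group in 47 of 48 alternatives, with cells thinned or at least 2 counts asked for. For Ltc4s the mean share in B-MF was 17.8%, then 10.9% with cells thinned and 5.19% with at least 2 counts. In Mo-MF it was 14.5%, 8.24% and 2.80%. The cause of these changes was not tested.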
